A study of Homo sapiens with 6 samples.

Results

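The genes of cholesterol and fatty acid synthesis that sterol regulatory element binding proteins (SREBPs) control were examined in DU-145 prostate cancer cells carrying a DOX-inducible shRNA against the long noncoding RNA XIST. The set was a list of 32 gene symbols chosen by name, of 25528 symbols in the expression table, and all 32 were found. It held 7 genes of the mevalonate segment, 11 of the squalene and sterol segment, 5 genes that control SREBP together with the sterol carrier STARD4, and 8 genes of the fatty acid segment. The 6 samples were DU-145/tet-XISTshRNA cells in 2 groups of 3, of which vehicle received 0.1% DMSO and DOX received 500 ng/ml doxycycline, for 7 days by the study's methods. All samples carried the tet-XISTshRNA vector, and transduced cells had been selected with puromycin or geneticin. The labels describe triplicate cultures of 1 cell line and give no further origin, so p-values measure the spread between these samples, which may be technical. No line with a control shRNA was among these samples, so the effect of doxycycline and that of the shRNA cannot be told apart.

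Animal cells build cholesterol from acetyl-CoA through mevalonate, isoprenoid diphosphates, squalene and lanosterol. The same acetyl-CoA pool feeds fatty acid synthase and the enzymes that elongate and desaturate its product. SREBPs are membrane-bound transcription factors whose escort SCAP carries them to the Golgi for cleavage when sterols are low. INSIG proteins hold SCAP in the endoplasmic reticulum when sterols are high, and INSIG1 is itself an SREBP target. Prostate cancers are known for active lipid synthesis, including high fatty acid synthase.

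Messenger RNA was measured by RNA-seq, and the authors deposited TPM, a level per length in which each sample sums to 1000000. RN7SL1, RN7SL2, RN7SL3, RN7SK and RPPH1, abundant small RNAs, held 67.5% to 82.6% of it, so each sample was rescaled by the median of ratios over genes, and levels are given as scaled TPM. Reads on genes, recovered from TPM and the authors' deposited mean normalized counts, were 5453536 to 20351532 in vehicle and 17489093 to 64561665 in DOX, with the fewest in vehicle replicate 3 and the most in DOX replicate 1. Over the 6 samples the members had from 31 reads (MVK) to 136526 reads (SCD). XIST was listed at 0 TPM in each of the 6 samples, so the knockdown could not be checked in these libraries. All 5 epithelial markers reached 1 TPM, with sums of 214 to 358 TPM in vehicle and 257 to 286 TPM in DOX. None of the endothelial, fibroblast, adipocyte or hepatocyte markers reached 1 TPM, and of 4 leukocyte markers CD68 and CD14 did, while CD3E was listed at 0.

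The group means of DOX and vehicle differed by less than 1.5-fold for each of the 32 members, and no member passed the test. DOX was compared with vehicle by limma on log2(scaled TPM + 1) over 11595 genes with a mean scaled TPM of at least 1, and all 32 members were among them. A gene was called at a Benjamini-Hochberg adjusted p under 0.05 and a fold change over 1.5. Of the members 0 were called higher and 0 lower, and of all genes 0 (0%) were called in either direction. The adjusted p of the members ran from 0.280 (EBP) to 0.985 (FADS1), and their log2 fold changes from -0.45 (STARD4) to 0.54 (MVD). At an unadjusted p under 0.05, 8 members were higher (MVK, MVD, FDPS, FDFT1, EBP, DHCR7, ACLY and FASN) against 8.12% of all genes, and 1 was lower (STARD4) against 7.75% of all genes. The 3 DOX samples lay above all 3 vehicle samples for 9 members (ACAT2, MVK, FDPS, FDFT1, SQLE, EBP, DHCR7, ACLY and FASN), which is 28.1% of the set, against 10.9% of all genes. For 0 members did they lie below all 3 vehicle samples, against 9.15% of all genes. The median log2 fold change was 0.19 over the members and 0.02 over all genes tested, and 24 of 32 members were higher in DOX, against 52.9% of all genes. The median of the members lay 0.18 above that of all genes, and this shift was 0.08 without DOX replicate 1 and 0.11 without vehicle replicate 2. These directions depend on the scaling: on TPM as deposited the median of all genes was -0.35 and that of the members -0.23. On that scale 28 of 32 members were lower in DOX, while only 6.90% of all genes were higher. By segment, the genes lower on that scale were 4 of 7 (mevalonate), 11 of 11 (squalene and sterol), 6 of 6 (control of SREBP with STARD4) and 7 of 8 (fatty acid).

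**Figure D1:**
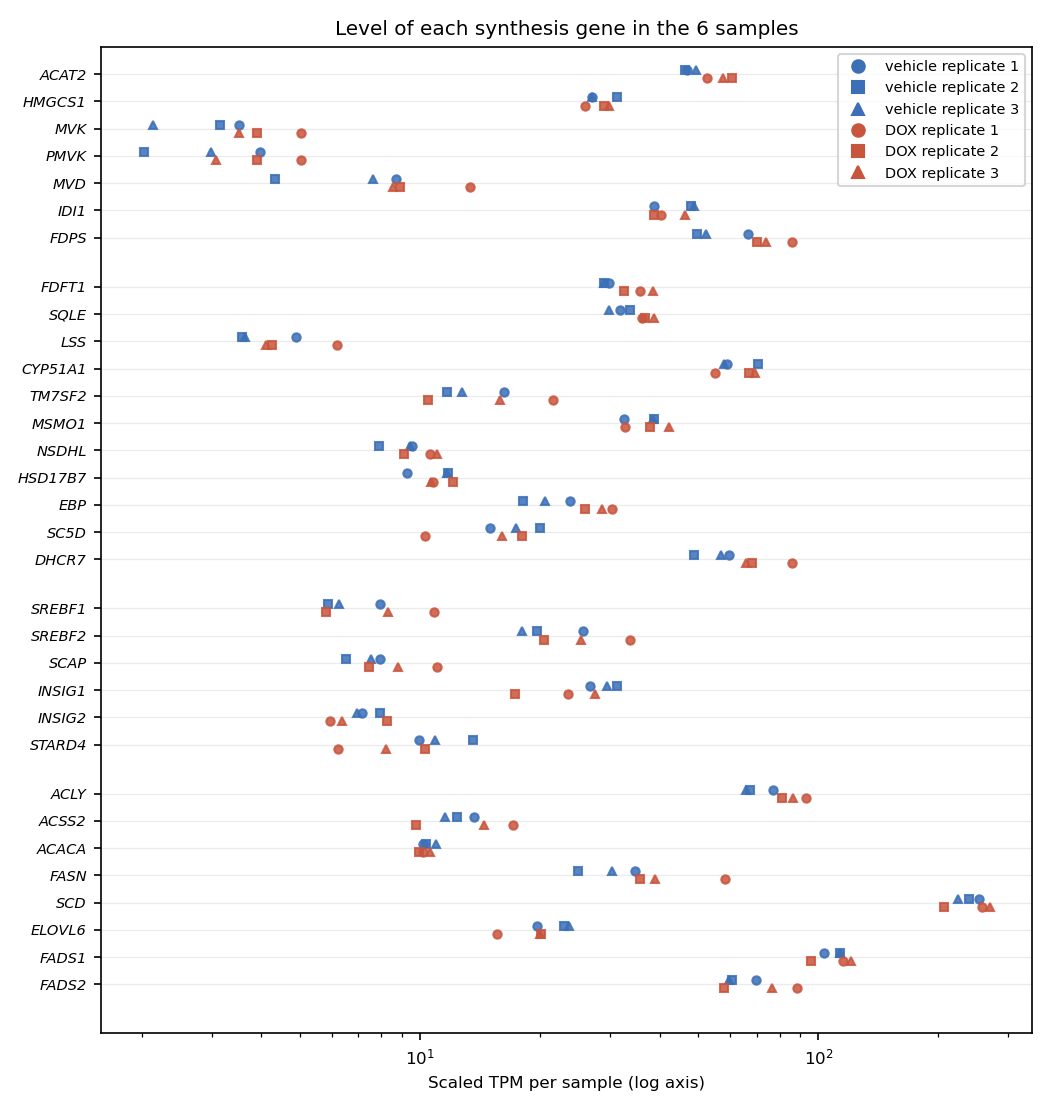
Scaled TPM (log axis) of each of the 32 genes in the 6 samples, with vehicle in blue and DOX in red, the symbol giving the replicate number, and genes grouped by segment from the mevalonate segment at the top to the fatty acid segment at the bottom. SCD has the highest level and PMVK and MVK the lowest, and for 9 genes the red symbols all lie to the right of the blue ones.

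Levels differed widely between the members. SCD, the stearoyl-CoA desaturase that makes oleate, had the highest level at 239 ± 14.6 scaled TPM in vehicle and 245 ± 32.9 in DOX (SD, n = 3 each), and it alone held 18.4% to 21.97% of the summed level of the 32 genes. FADS1, ACLY, FADS2 and FDPS followed in that order. PMVK and MVK, the kinases of the mevalonate segment, were lowest, at 2.99 ± 0.972 and 2.93 ± 0.715 scaled TPM in vehicle, a difference within their spread. The summed level of all members was 1154, 1114 and 1096 scaled TPM in the vehicle samples, in the order of their replicate numbers as throughout, and 1309, 1124 and 1284 in the DOX samples. All 3 DOX sums were above 2 of the vehicle sums, and DOX replicate 2 was below vehicle replicate 1. Of the TPM outside the small RNAs, the members held 0.476% to 0.505% in vehicle and 0.471% to 0.529% in DOX. DOX replicate 1 held the highest level of 15 members and vehicle replicate 2 the lowest level of 10.

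In the mevalonate segment, 5 of 7 genes were higher in DOX and 2 were lower, with a median log2 fold change of 0.34. The summed level of the segment was 195, 184 and 190 scaled TPM in vehicle and 228, 215 and 223 in DOX, without overlap. As deposited TPM the sums were 205, 205 and 268 in vehicle and 158, 216 and 207 in DOX, which overlapped. MVD, the decarboxylase that makes isopentenyl diphosphate, had the largest log2 fold change of the 32 genes. It measured 8.71, 4.32 and 7.62 scaled TPM in vehicle and 13.4, 8.93 and 8.57 in DOX, where DOX replicate 3 was just under vehicle replicate 1. Its log2 fold change was 0.54 (SE 0.24, 95% interval 0.02 to 1.06, adjusted p = 0.304 by limma), and it was 0.28 without vehicle replicate 2, the lowest sample. FDPS, the farnesyl diphosphate synthase from which sterols and prenyl groups branch, measured 66.7, 49.5 and 52.2 scaled TPM in vehicle and 85.8, 70.1 and 73.9 in DOX. The groups did not overlap, and the log2 fold change was 0.45 (SE 0.15, adjusted p = 0.281 by limma). MVK measured 3.51, 3.15 and 2.13 scaled TPM in vehicle and 5.02, 3.90 and 3.52 in DOX. The groups of MVK were separated by less than 0.05 scaled TPM, and the log2 fold change was 0.39 (SE 0.17, adjusted p = 0.309 by limma) and 0.24 without vehicle replicate 3, which had 31 reads. IDI1, the isomerase of isopentenyl diphosphate, measured 38.6, 47.8 and 48.6 scaled TPM in vehicle and 40.4, 38.6 and 46.3 in DOX, and the groups overlapped (log2 fold change -0.10, 95% interval -0.41 to 0.20). HMGCS1, the HMG-CoA synthase at the entry of the pathway, measured 27.0, 31.2 and 27.1 scaled TPM in vehicle and 25.9, 28.9 and 29.9 in DOX, with a log2 fold change of -0.01 (95% interval -0.28 to 0.26). The thiolase ACAT2, which condenses acetyl-CoA, and PMVK had log2 fold changes of 0.26 and 0.34. PMVK overlapped between groups and was at 0.15 without vehicle replicate 2.

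In the squalene and sterol segment, 10 of 11 genes were higher in DOX and 1 was lower, with a median log2 fold change of 0.18. On TPM as deposited 0 were higher and 11 lower, and 6.90% of all genes were higher. The summed level was 292, 294 and 288 scaled TPM in vehicle and 335, 322 and 341 in DOX, without overlap, while the sums of deposited TPM (306, 326 and 406 in vehicle, 232, 324 and 317 in DOX) overlapped. EBP, the sterol isomerase, measured 23.9, 18.1 and 20.6 scaled TPM in vehicle and 30.2, 25.9 and 28.6 in DOX. Every DOX sample was above every vehicle sample (log2 fold change 0.43, SE 0.14, 95% interval 0.13 to 0.73, adjusted p = 0.280 by limma). DHCR7, the reductase that ends one branch of the pathway in cholesterol, measured 59.8, 48.7 and 56.9 scaled TPM in vehicle and 85.7, 68.3 and 65.8 in DOX. Again the groups did not overlap (log2 fold change 0.40, SE 0.14, adjusted p = 0.281 by limma). FDFT1, the squalene synthase that commits farnesyl diphosphate to sterols, measured 29.7, 29.0 and 29.0 scaled TPM in vehicle and 35.7, 32.4 and 38.4 in DOX. The vehicle samples of FDFT1 were close together (SD 0.436 scaled TPM), and all DOX samples were above them (log2 fold change 0.27, SE 0.12, adjusted p = 0.304 by limma). SQLE, the squalene epoxidase, measured 31.7, 33.8 and 29.8 scaled TPM in vehicle and 36.1, 36.7 and 38.7 in DOX, without overlap (log2 fold change 0.22, adjusted p = 0.350 by limma). SC5D, the sterol desaturase that acts next to DHCR7, was the 1 gene of the segment with a lower mean in DOX. It measured 15.0, 20.0 and 17.5 scaled TPM in vehicle and 10.3, 18.0 and 16.0 in DOX, with overlap, and its log2 fold change was -0.25 (95% interval -0.69 to 0.18) and -0.03 without DOX replicate 1. The other 6 genes overlapped between groups: LSS, the lanosterol synthase, TM7SF2, a sterol reductase, NSDHL and HSD17B7, which act in removal of the sterol methyl groups, MSMO1, the methyl oxidase, and CYP51A1, the lanosterol demethylase. Their log2 fold changes ran from 0.03 (CYP51A1, 95% interval -0.28 to 0.33) to 0.21 (LSS, 95% interval -0.17 to 0.59, and 0.05 without DOX replicate 1).

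INSIG1, INSIG2 and the sterol carrier STARD4 were lower in DOX in the mean, while SREBF1, SREBF2 and SCAP were higher. INSIG1 measured 26.7, 31.3 and 29.4 scaled TPM in vehicle and 23.5, 17.3 and 27.5 in DOX. DOX replicate 2 was far below the rest, and DOX replicate 3 was above vehicle replicate 1, so the groups overlapped. Its log2 fold change was -0.36 (SE 0.17, 95% interval -0.73 to 0.01, adjusted p = 0.316 by limma), with DOX lower in all 3 same-numbered pairs, by -0.18, -0.82 and -0.09 on the log2 scale, and without DOX replicate 2 it was -0.19. STARD4, which carries cholesterol between membranes and is an SREBP target, measured 9.95, 13.6 and 10.9 scaled TPM in vehicle and 6.21, 10.3 and 8.21 in DOX. DOX replicate 2 was above vehicle replicate 1, so these groups overlapped too. DOX was lower in all 3 same-numbered pairs (-0.60, -0.37 and -0.37), though the labels do not say what the numbers mark. The log2 fold change of STARD4 was -0.45 (SE 0.18, 95% interval -0.85 to -0.05, adjusted p = 0.288 by limma), the lowest of the 32, and it was -0.28 without DOX replicate 1. INSIG2, the paralog of INSIG1, measured 7.16, 7.94 and 6.93 scaled TPM in vehicle and 5.95, 8.28 and 6.37 in DOX, with overlap (log2 fold change -0.09, 95% interval -0.41 to 0.22). The SREBP genes and their escort had means on the higher side, and each overlapped between groups. SREBF2, whose product mainly drives cholesterol synthesis, measured 25.6, 19.7 and 18.0 scaled TPM in vehicle and 33.6, 20.5 and 25.3 in DOX (log2 fold change 0.30, 95% interval -0.13 to 0.73). SREBF1, whose product mainly drives fatty acid synthesis, measured 7.95, 5.89 and 6.25 in vehicle and 10.8, 5.81 and 8.33 in DOX (log2 fold change 0.25, 95% interval -0.19 to 0.70). SCAP measured 7.94, 6.52 and 7.52 in vehicle and 11.0, 7.44 and 8.81 in DOX (log2 fold change 0.26, 95% interval -0.08 to 0.61). For all 3 of these genes the highest sample was DOX replicate 1, and without it the log2 fold changes were 0.12 (SREBF2), 0.06 (SREBF1) and 0.13 (SCAP). After the correction for GC content and length that is described with the GC plot, they were 0.16 (SREBF2), 0.06 (SREBF1) and 0.08 (SCAP).

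**Figure D2:**
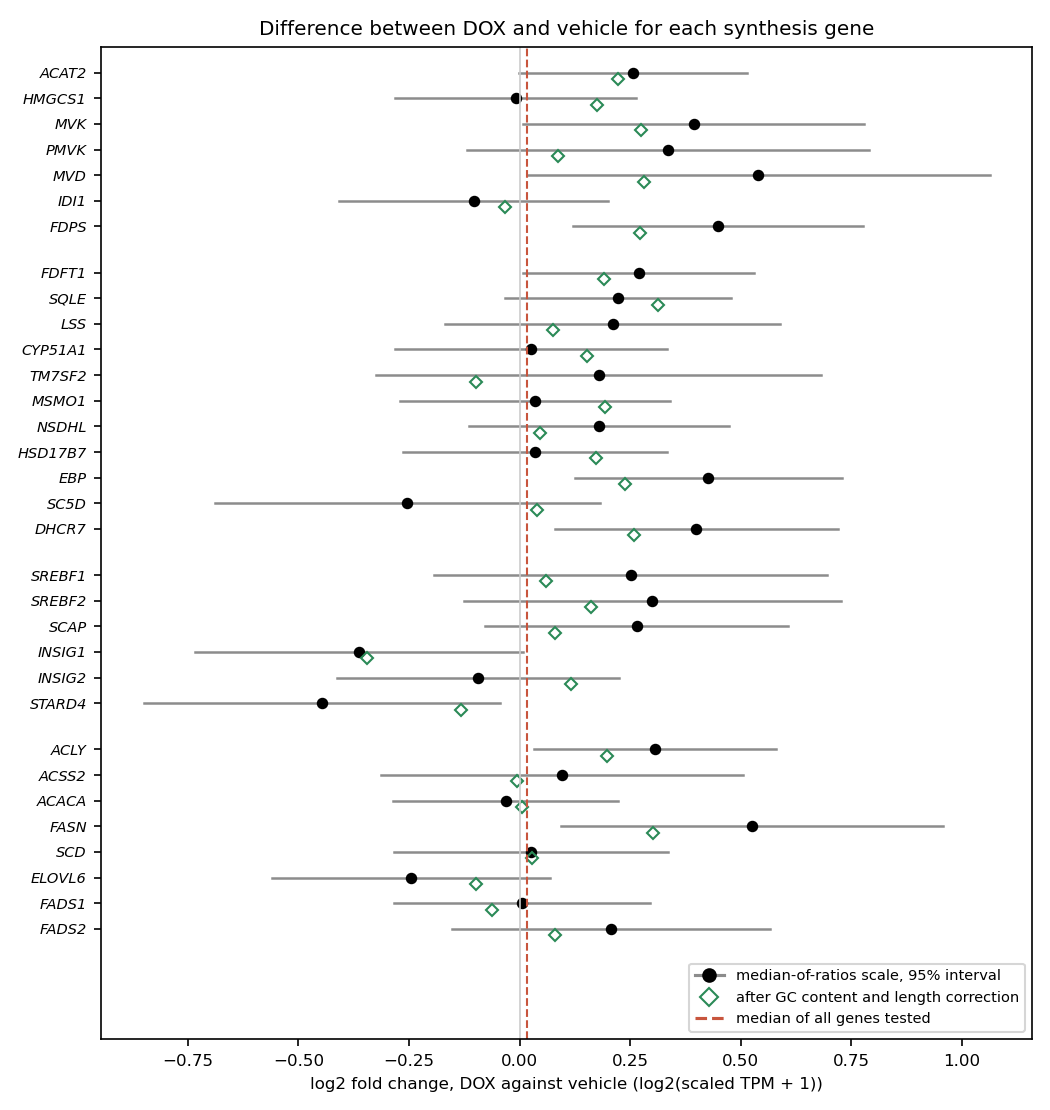
Log2 fold change of DOX against vehicle for each gene, grouped as above, with black points and grey 95% intervals for the median-of-ratios scale, open diamonds for values after correction for GC content and length, and the dashed line at the median of all genes tested (0.02). Most points lie right of the line, STARD4 and INSIG1 lie farthest left, and INSIG1 is the gene farthest left after the correction.

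Sequences upstream of 4 genes are shown because INSIG1 and STARD4 had the lowest and MVD the highest log2 fold change, and SREBF2 was the member whose promoter held the sterol regulatory element searched for. Promoters came from RefSeq (GRCh38.p14) and matched 28 of 32 members. Those of ACAT2, FDFT1, SQLE and FASN had no entry. In the 300 bases around each start (250 before and 50 after), 3 motifs were searched on both strands: TCACNCCAC for the element, CCAAT for the box that NF-Y binds, and GGGCGG for the GC box that SP1 binds. CCAAT was in at least 1 promoter of 21 of 28 members, and in 64.1% of their 39 promoters against 34.6% of 35116 promoters of all genes. GGGCGG was in promoters of 27 of 28 members, and in 89.7% of their promoters against 44.95% of all. TCACNCCAC was in the promoter of 1 member, and in 2.56% of the members' promoters against 1.13% of all. A match is only a match of letters in this window. Each sequence ends where the first annotated transcript of the gene begins, and capitals mark CCAAT (written as ATTGG where it lies on the other strand) and the element.
INSIG1: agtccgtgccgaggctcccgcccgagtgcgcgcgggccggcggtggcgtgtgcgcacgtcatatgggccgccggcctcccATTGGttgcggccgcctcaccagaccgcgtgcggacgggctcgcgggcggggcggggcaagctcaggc
STARD4: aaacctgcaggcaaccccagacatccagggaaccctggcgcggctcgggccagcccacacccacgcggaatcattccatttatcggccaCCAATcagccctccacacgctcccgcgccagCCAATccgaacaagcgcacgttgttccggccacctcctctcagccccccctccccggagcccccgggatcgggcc
MVD: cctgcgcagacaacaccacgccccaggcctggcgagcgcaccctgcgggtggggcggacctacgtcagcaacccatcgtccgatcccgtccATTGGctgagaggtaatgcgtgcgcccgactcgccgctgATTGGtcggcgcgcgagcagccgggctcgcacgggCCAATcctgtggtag
SREBF2: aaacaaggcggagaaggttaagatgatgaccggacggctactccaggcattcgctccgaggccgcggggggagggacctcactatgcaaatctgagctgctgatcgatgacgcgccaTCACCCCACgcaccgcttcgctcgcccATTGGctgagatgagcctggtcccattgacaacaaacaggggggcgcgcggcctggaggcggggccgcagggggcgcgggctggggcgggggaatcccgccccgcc
They lie at chr7:155297628-155297775 (plus strand), chr5:111512591-111512785 (minus strand), chr16:88663162-88663341 (minus strand) and chr22:41832855-41833104 (plus strand). INSIG1 and SREBF2 had 1 CCAAT each in the stretch shown, STARD4 had 2 and MVD had 3. Whether the box goes with the log2 fold change was not tested.

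In the fatty acid segment, 6 of 8 genes were higher in DOX and 2 were lower, with a median log2 fold change of 0.06. The summed level was 582, 551 and 539 scaled TPM in vehicle and 655, 517 and 636 in DOX, with overlap. FASN, the fatty acid synthase, measured 34.7, 24.9 and 30.4 scaled TPM in vehicle and 58.3, 35.7 and 38.8 in DOX. The groups did not overlap, DOX replicate 1 stood above the other DOX samples, and the log2 fold change was 0.53 (SE 0.19, 95% interval 0.09 to 0.96, adjusted p = 0.281 by limma) and 0.31 without that sample. ACLY, which splits citrate into cytosolic acetyl-CoA, measured 77.0, 67.2 and 65.7 scaled TPM in vehicle and 92.9, 80.9 and 86.2 in DOX. These groups did not overlap either (log2 fold change 0.31, SE 0.12, adjusted p = 0.287 by limma). FADS2, a desaturase of polyunsaturated fatty acids, measured 69.9, 60.8 and 59.6 in vehicle and 88.2, 58.1 and 76.5 in DOX, with overlap (log2 fold change 0.21, 95% interval -0.15 to 0.57, and 0.07 without DOX replicate 1). ELOVL6, the elongase that extends palmitate, measured 19.7, 23.0 and 23.6 scaled TPM in vehicle and 15.6, 20.1 and 20.1 in DOX. DOX was lower in all 3 pairs, the groups overlapped, and the log2 fold change was -0.25 (95% interval -0.56 to 0.07, adjusted p = 0.387 by limma) and -0.13 without DOX replicate 1. ACACA, the acetyl-CoA carboxylase that supplies malonyl-CoA to FASN, was nearly level, at 10.2, 10.3 and 11.0 scaled TPM in vehicle and 10.2, 9.96 and 10.6 in DOX (log2 fold change -0.03, 95% interval -0.29 to 0.22). The log2 fold changes of ACSS2, which makes acetyl-CoA from acetate, SCD and the desaturase FADS1 were 0.10, 0.03 and 0.01, and all 3 overlapped between groups.

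**Figure D3:**
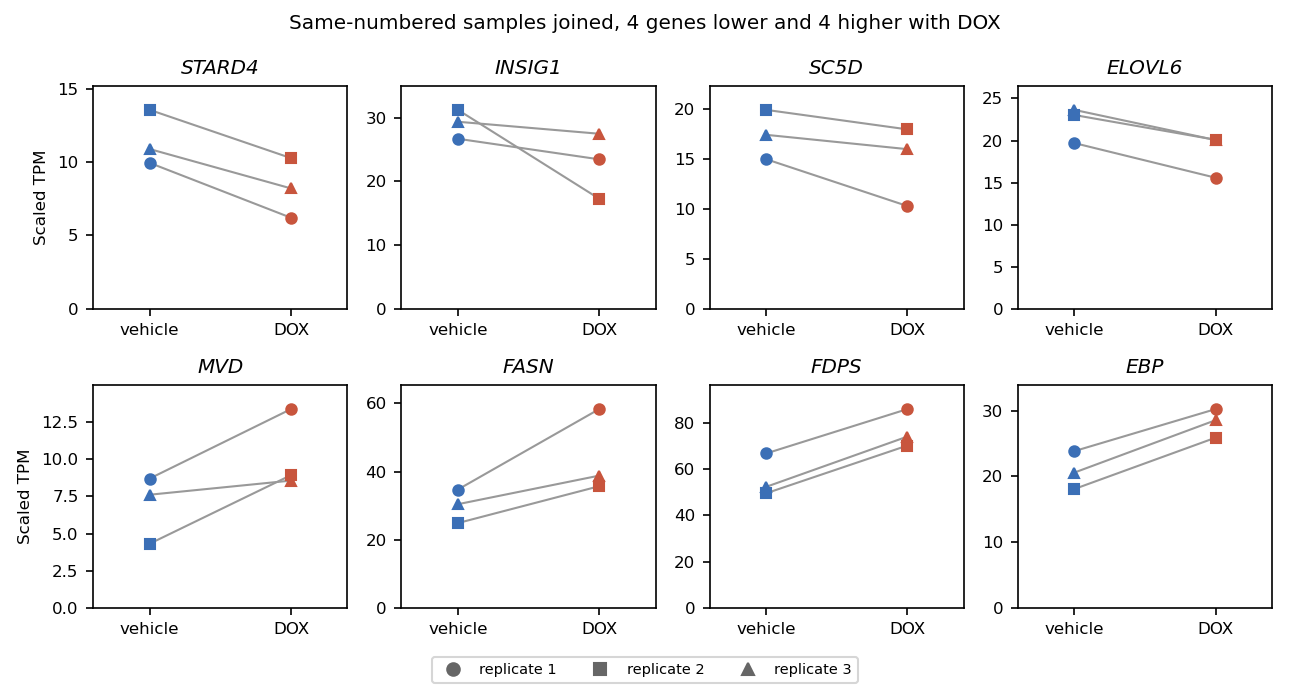
Scaled TPM of STARD4, INSIG1, SC5D and ELOVL6 (upper row) and of MVD, FASN, FDPS and EBP (lower row) in vehicle and DOX, with grey lines joining samples of the same replicate number. All lines run down in the upper row and up in the lower row, and INSIG1 in replicate 2 has the steepest line of its gene, from 31.3 to 17.3.

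Between same-numbered samples, the median difference over members was 0.23, 0.04 and 0.20 on the log2 scale in pairs 1, 2 and 3, and 25, 17 and 24 of 32 members were higher in DOX. The second pair was near level for the members as a whole, although MVD differed most in it (0.90 on the log2 scale). With the replicate number as a block, limma still called 0 members, as it called 0 of all genes, and the lowest adjusted p among members was 0.0559 (FDPS and FASN). On recovered reads, voom with the replicate block called 246 genes lower (2.12%) and 170 higher (1.47%), and of the members 0 lower and MVD higher, at a log2 fold change of 0.67 (SE 0.16, adjusted p = 0.0252). Without the fold limit, 6 members passed as higher (MVD, FDPS, EBP, DHCR7, ACLY and FASN) against 5.62% of all genes, and STARD4 passed as lower against 7.91%. On TPM as deposited with the block, 0 members were called higher (0.129% of all genes) and 4 lower (SC5D, INSIG1, STARD4 and ELOVL6), against 19% of all genes.

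The difference of a member between DOX and vehicle moved with the GC content of its exons, as it did over all genes. Over the 32 members, which share the same 6 libraries, log2 fold change and GC content had r = 0.79 (Spearman's rho 0.75), and over the 10788 genes with an annotated GC content r was 0.66 (rho 0.70). All 11 members with a GC content of 55% or more were higher in DOX (median 0.30), among them FASN (65.2% GC) and MVD (63.0%). Over all genes of that class the median was 0.23, and 2385 of 2666 were higher. The 11 members under 45% GC had a median of -0.09, against -0.15 over all genes of that class, and STARD4 (34.6%), SC5D (37.3%), ELOVL6 (42.0%) and INSIG1 (44.6%) were among them. The 10 members between had a median of 0.22, against 0.07. After each sample was corrected for GC content and exonic length, r over the members was 0.24. Their median log2 fold change was then 0.10 and that of all genes 0.02, so the members lay 0.08 above all genes, against 0.18 without the correction. Their range was -0.35 (INSIG1) to 0.31 (SQLE). After the correction, 10 members were higher in DOX without overlap (ACAT2, HMGCS1, FDPS, FDFT1, SQLE, CYP51A1, EBP, DHCR7, ACLY and FASN), against 11.3% of all genes, and INSIG1 was lower without overlap, against 8.73% of all genes. STARD4 went from -0.45 to -0.13 with the correction, SC5D from -0.25 to 0.04, MVD from 0.54 to 0.28 and FASN from 0.53 to 0.30, while INSIG1 went from -0.36 to -0.35. The corrected differences of INSIG1 were -0.14, -0.78 and -0.11 in pairs 1, 2 and 3, so most of the fall lay in pair 2 (adjusted p = 0.356 by limma). On corrected voom values with the block, the lowest adjusted p among members was 0.122 (SQLE), and that of INSIG1 was 0.200, that of MVD 0.346 and that of STARD4 0.494. The part of GC content in these differences was not tested.

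**Figure D4:**
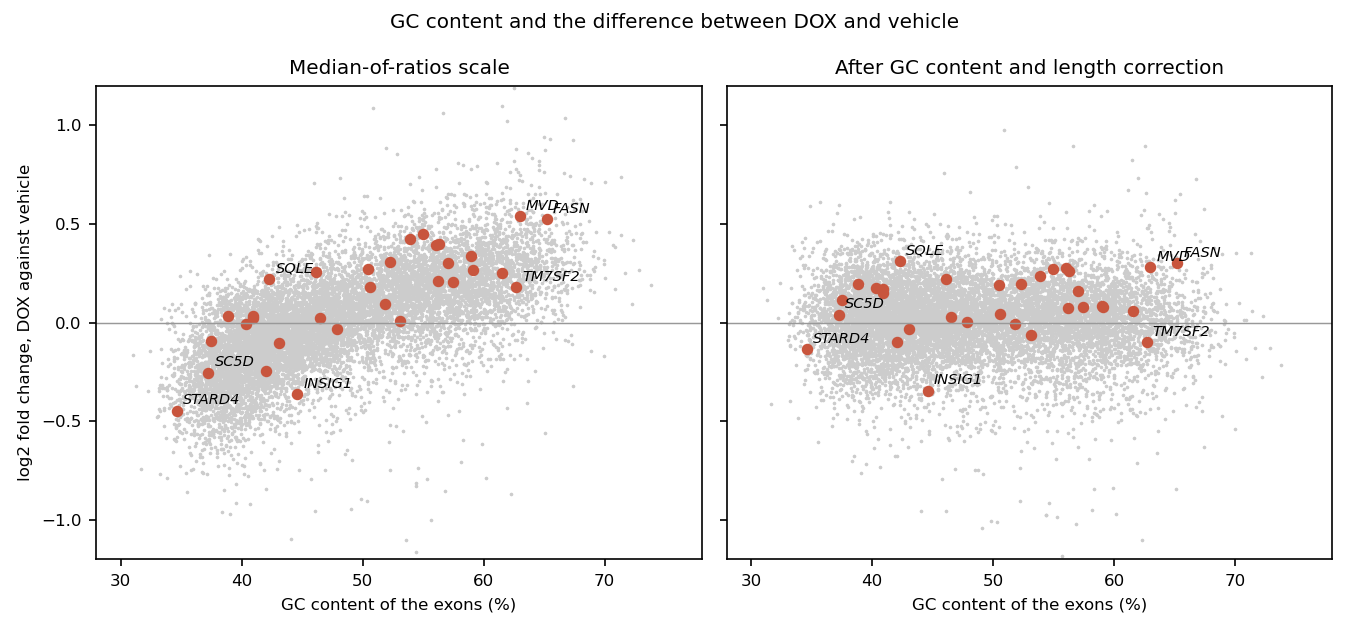
Log2 fold change of DOX against vehicle plotted against the GC content of the exons (%), with the 32 genes in red over all genes tested in grey, before (left) and after (right) correction for GC content and length. The red points rise from left to right with the grey ones in the left panel (r = 0.79) and lie nearer to level in the right panel (r = 0.24), where INSIG1 is the lowest. The vertical axis ends at 1.2 in both directions, and 4 grey genes on the left and 6 on the right lie outside it.

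Genes around the pathway gave no call in limma, where 0% of all genes were called in either direction. Of 7 genes that act in the processing of SREBP or its control, 3 were higher and 4 lower (median log2 fold change -0.03). Of these 0 had an unadjusted p under 0.05, where all genes gave 8.12% higher and 7.75% lower. MBTPS2, the protease that makes the last cut in SREBP, and RNF145, a sterol-responsive ubiquitin ligase, had the largest differences (-0.31 and -0.21, and -0.07 and -0.20 after the GC correction). Of 13 genes of sterol uptake, transport and storage, 5 were higher and 8 lower (median -0.10), led by SOAT1, which esterifies cholesterol (-0.26, corrected -0.06), and NPC1, which exports it from lysosomes (-0.23, corrected -0.19), with 0 at an unadjusted p under 0.05. Of the LXR genes 5 of 6 were tested, without ABCG1 (3 higher, 2 lower, median 0.16), with the receptor NR1H2 at 0.48 (corrected 0.27) and the sterol exporter ABCA1 at -0.22 (corrected -0.14), again with 0 at that p. Of the isoprenoid branch 11 of 12 were tested, without FNTB (6 higher, 5 lower, median 0.02, 1 at that p), with the prenyltransferase subunit PGGT1B at -0.41 (corrected -0.04) and the prenyl protein protease RCE1 at 0.24 (corrected -0.04). Of other fatty acid genes 24 of 25 were tested, without ELOVL3 (12 higher, 12 lower, median -0.02, 1 at that p), with the acyl-CoA ligase ACSL4 at -0.37 (corrected -0.07). SLC25A1, the carrier that brings citrate out of mitochondria to ACLY, measured 20.9, 12.2 and 12.6 scaled TPM in vehicle and 29.9, 19.6 and 21.7 in DOX. Its log2 fold change was 0.63, and it was the 1 gene of these lists that voom with the replicate block called (0.63, adjusted p = 0.0125), against 1.47% of all genes called higher and 2.12% lower in that fit. After the GC correction its log2 fold change was 0.28, and voom with the block and the correction no longer called it (adjusted p = 0.487). Of the genes named here, NR1H2, PGGT1B and ACSL4 also passed in voom with the block without the fold limit (adjusted p = 0.0356, 0.0318 and 0.0359). Of all genes 5.62% passed so as higher and 7.91% as lower, and the unnamed genes of the lists were not counted. With the correction the adjusted p of NR1H2, PGGT1B and ACSL4 by voom with the block was 0.449, 0.976 and 0.883.

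Some of these levels share reads with other genes or could do so. HSD17B7 has a near-identical pseudogene, HSD17B7P2, which had a mean of 1.92 scaled TPM, so its values are uncertain. FDPS has 8 annotated pseudogenes, of which FDPSP2 was in the table at a mean of 0 scaled TPM. IDI1 and CYP51A1 have 3 each and SCD has 1, none of them in the table under their annotated symbols. Exons of FADS1 and FADS2 overlap by 490 bases on opposite strands, ACAT2 overlaps TCP1 by 454 bases on the opposite strand, and CYP51A1 and EBP share exons with readthrough genes on their own strand. Long noncoding RNAs on the opposite strand overlap exons of HMGCS1 by 2497 bases, SREBF2 by 731, FDPS by 693 and IDI1 by 643. Further members have shorter overlaps. The libraries were stranded, but the strand setting of the counting is not given in the sources used here. In bulk samples, fewer cells with a transcript and less of it per cell cannot be told apart.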

How the data were processed

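RNA-seq was analysed in 3 vehicle and 3 DOX samples, grouped and numbered by their labels. The authors prepared stranded mRNA libraries, aligned reads with STAR to GRCh38 (versions and counting tool not given in the sources used here) and deposited TPM per gene symbol. The authors also deposited DESeq2 output for DOX against vehicle (log2 fold changes, standard errors, test statistics and p-values, none used here) with a mean normalized count per gene, a signal from which reads were recovered. Of 26137 low values, 98.6% were within 0.05 of a whole read.

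TPM was scaled by the median of ratios over 15075 genes above 0 in all samples. limma 3.58.1 (R 4.3.3) with a variance trend was run on log2(scaled TPM + 1) without a block, with Benjamini-Hochberg adjustment over all genes tested. Fold changes on this scale understate the change of low genes. The limma and voom fits were tried on simulated reads with known changes. Those reads had no GC trend and no pairing, and the GC and length correction was not tried on them. GC content and exonic length came from GENCODE release 44 (87.2% of symbols matched) and were corrected per sample by splines with 5 degrees of freedom. Vehicle and DOX samples with the same number deviated together from their groups (r = 0.56, 0.26 and 0.19 for numbers 1, 2 and 3; 0.17, 0.03 and 0.15 after the GC and length correction), so the numbers were taken as pairs. Vehicle replicate 2 and DOX replicate 3 also correlated, at r = 0.22, above the 0.19 of number 3, and at 0.08 after the correction, above the 0.03 of number 2. The labels do not say what the numbers mark. Precision is lowest in vehicle replicate 3, and with 3 samples against 3 an exact permutation test cannot go below p = 0.1. No samples held identical values (0 pairs). Tables were handled with Python 3.11.15 and pandas 2.3.3, and figures drawn with matplotlib 3.10.9.

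The members and lists were chosen with earlier results of these data known. Named per sample are the up to 3 genes of each segment with the largest differences in each direction and any gene called; SQLE was added after its values were seen. Of other lists, the genes with the largest differences and any called are named. A check on prostate luminal markers is not reported here.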

Additional observations from a re-analysis of the deposited data

How the results depend on the processing

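Alternatives were other scalings (TPM as deposited, upper quartile, TPM without the small RNAs), the replicate block, voom on recovered reads, the GC content and length correction, a pseudocount of 0.1, no filter on low values, and leaving out each sample, 18 in all. Limma with the replicate block on scaled TPM called 0 members and 0 genes, as without it. Members called were 4 lower on TPM as deposited with the replicate block, 1 higher by voom with the replicate block, and 0 under the others. Over all genes, calls lower were 1 by voom, 246 by voom with the replicate block, 348 on TPM as deposited, 2217 on that with the block, 7 by voom with the block and correction, and 0 to 1 with a sample left out. Calls higher were 170, 3, 15 and 1 under voom with the block, TPM as deposited, that with the block, and voom with the block and correction, and 0 to 13 with a sample left out. The count of 9 members at an unadjusted p under 0.05 (15.9% of all genes) became 0 without vehicle replicate 2 (6.35% of all genes), 3 without DOX replicate 1 (8.67%), 5 without vehicle replicate 3 (7.38%) and 14 without DOX replicate 2 (24.0%). It was 15 with the replicate block (29.3% of all genes), 19 by voom with the block (32.6%) and 4 on TPM as deposited (29.4%).

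Each member's log2 fold change was also taken relative to the median of all genes under each setting. Of 576 such values 533 kept their direction and 43 did not, and 22 members kept it under every alternative. In limma the replicate block left each log2 fold change as it was. The limma values with the block thus repeat those without it, and these counts include the repeats. With the GC correction, with or without the block, HMGCS1 became 0.16, TM7SF2 -0.12, SC5D 0.022, INSIG2 0.10 and ACSS2 -0.023. By voom with the block and correction these were 0.18, -0.19, 0.041, 0.12 and -0.046. On TPM as deposited, with or without the block, CYP51A1 became -0.064, MSMO1 -0.050, HSD17B7 -0.025 and SCD -0.070. By voom CYP51A1 became -0.00032, and without the filter FADS1 became 0.0053. With 1 sample left out, the ranges were -0.086 to 0.28 (ACSS2), -0.041 to 0.11 (CYP51A1), -0.062 to 0.078 (FADS1), -0.057 to 0.038 (HMGCS1), -0.079 to 0.070 (HSD17B7), -0.055 to 0.11 (MSMO1), -0.051 to 0.11 (SCD) and -0.070 to 0.41 (TM7SF2). The cause was not tested. At 31 reads in vehicle replicate 3, MVK is limited by depth. PMVK, with 32 reads in its lowest sample, is limited likewise, and MVD had 97 reads in its lowest sample.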
